A study of Mus musculus with 21 samples.

Results

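The genes of the cytosolic ribosome were followed in 12 oocyte and 9 granulosa cell libraries of ICR mice. Members were the gene symbols that start with Rpl, Rps or Rplp and go on with a number and, at most, the letters a, x, l or y, with the pseudogenes that carry a ps suffix left out. The rule found 89 of 55335 gene identifiers. Of these, 83 are annotated as protein-coding, 52 of them for the large and 31 for the small subunit, and 6 are annotated as processed pseudogenes in spite of their names (Rpl32l, Rpl6l, Rps3a2, Rps3a3, Rps12l1 and Rps4l). Ribosomal genes named otherwise, such as Rpsa, Fau and Rack1, were described apart.

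The ribosome reads mRNA with its small subunit and joins amino acids with its large subunit, and a flexible stalk of the proteins P0, P1 and P2 on the large subunit recruits the elongation factors. Most mRNAs of ribosomal proteins start with a run of pyrimidines, the terminal oligopyrimidine or TOP tract, through which mTOR and LARP1 set their translation together. A growing oocyte stores ribosomes and mRNA, and a mature oocyte arrested in metaphase II makes little new RNA and lives on that store, whereas granulosa cells, the somatic cells that surround and feed the oocyte, are transcriptionally active.

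Young animals were 6 to 8 weeks old, and Aged animals were 18 months old and received no cells. The other 3 groups were aged mice with human umbilical cord mesenchymal stem cells (UC-MSCs) placed under the ovarian capsule, either Unsorted or sorted for high or low surface level of the receptor LRP1, and their ovaries were collected 3 weeks later. Oocytes were represented by 3 Young, 2 Aged, 2 Aged + Unsorted, 3 Aged + LRP1high and 2 Aged + LRP1low libraries, and granulosa cells by 1 Young, 2 Aged, 1 Aged + Unsorted, 3 Aged + LRP1high and 2 Aged + LRP1low libraries. The labels call them biological replicates and do not say how many animals or cells each one holds.

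Several libraries did not show the RNA of the cells on their labels. The 10 oocyte markers, such as the zona pellucida genes Zp1, Zp2 and Zp3, had a median FPKM of 0.892 in Young oocyte library 1, 11.6 in Aged 1, and 5.02 and 7.77 in Aged + LRP1low 1 and 2, against 84.9 to 1001 in the other 8 oocyte libraries. FPKM is the number of fragments scaled to the length of the gene and to the depth of the library. The granulosa cell library of Aged + Unsorted had an oocyte marker median of 800 and a granulosa marker median of 0.809, so its RNA was that of oocytes by these markers. Its 79 ribosomal protein genes with an FPKM of at least 10 in both libraries lay at a median of 0.875 times their level in oocyte library Aged + Unsorted 2, and the levels of all members correlated across genes with Spearman's rho = 0.988. The 10 granulosa markers had a median of 47.8 in the Young granulosa cell library, 18.0 in Aged + LRP1high 3 and 1.60 in Aged + LRP1low 1, and 0 to 1.26 in the other 5, among them 0 and 0.187 in the 2 Aged libraries. The 6 markers of luteal and thecal cells had a median of 519 in Aged + LRP1low 1, 27.8 in Young, and 17.3, 0.336 and 6.95 in Aged + LRP1high. They had 3.98 in Aged + LRP1low 2 and 0.0792 and 0.258 in the Aged granulosa cell libraries. Luteal cells are the form that granulosa cells take after ovulation. Vomeronasal receptor genes were read as a background of silent genes. Of these 327 genes, 231 reached an FPKM of 1 in Aged oocyte library 1, and 319 and 302 in Aged + LRP1low oocytes 1 and 2. In the other oocyte libraries at most 56 did. In granulosa cells 132 did in Aged + LRP1high 1 and at most 30 in the other libraries. In bulk libraries, fewer cells of a type, less RNA per cell and such background cannot be told apart.

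In oocytes, the 89 genes together reached an FPKM of 309, 4450 and 8027 in the 3 Young libraries, 1024 and 12159 in Aged, 13167 and 15580 in Aged + Unsorted, 6688, 11786 and 3902 in Aged + LRP1high, and 793 and 1021 in Aged + LRP1low. The 2 Aged + LRP1low libraries were below every library of Aged + Unsorted and Aged + LRP1high, while Young and Aged each held 1 low library and spanned most of the range. The mean was 14374 ± 1706 (SD, n = 2) for Aged + Unsorted, 7459 ± 3998 (SD, n = 3) for Aged + LRP1high, 6592 ± 7873 (SD, n = 2) for Aged, 4262 ± 3862 (SD, n = 3) for Young and 907 ± 161 (SD, n = 2) for Aged + LRP1low. The 4 lowest oocyte libraries were the same 4 with low oocyte markers. A single repeat-like transcript, Gm10800, held 78.1%, 42.6%, 37.5% and 55.5% of all transcripts (TPM) in Young 1, Aged 1 and Aged + LRP1low 1 and 2. It held at most 17.4% in the other oocyte libraries. With Gm10800 left out, the members took 0.147%, 0.37%, 0.279% and 0.402% of the TPM in these 4 libraries. In the other oocyte libraries they took 1.22% to 3.41%. The part of the 4 libraries in the difference between groups was not tested.

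In granulosa cells, the sum was 59219 in the single Young library, 27.5 and 29.9 in Aged, 13647 in the library labelled Aged + Unsorted, 1310, 86.8 and 10432 in Aged + LRP1high, and 21608 and 326 in Aged + LRP1low. As a share of all transcripts (TPM) the genes took 10% in the Young granulosa cell library and 0.00243% and 0.00266% in the Aged ones, against 3.41% in the highest oocyte library, Aged + Unsorted 2. Of the 89 genes, 40 and 33 were listed at 0 in the Aged granulosa cell libraries, and none reached an FPKM of 10 there. Gm10800 held 81.9% and 83.3% of the TPM in these libraries and 6.92% in Young. The comparison of Aged with Young is also given with this transcript left out of the scaling.

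**Figure D1:**
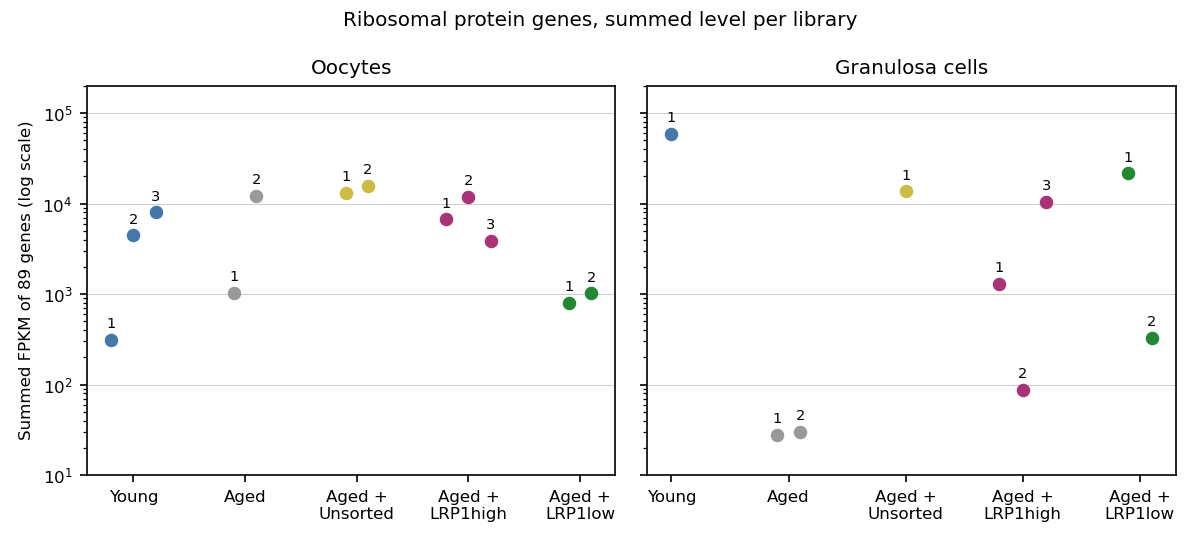
Summed FPKM of the 89 ribosomal protein genes (y axis, log scale) in each library by group (x axis), with oocytes on the left and granulosa cells on the right; each point is 1 library and carries its replicate number. Both Aged + LRP1low oocyte libraries sit at 793 and 1021, and the granulosa cell libraries run from 27.5 to 59219.

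The subunits were set side by side by the medians of their genes. In the Young granulosa cell library the median FPKM was 704 over 30 small subunit genes, with the paralog Rps27l and the annotated pseudogenes left out, and 532 over 43 large subunit genes, with the stalk and 6 paralogs left out. Aged + Unsorted oocytes had library medians of 149 and 193 for the small and 120 and 157 for the large subunit, and Aged + LRP1low oocytes 9.15 and 9.50 for the small and 9.89 and 10.6 for the large subunit. Aged + LRP1high oocytes ran from 24.6 to 134 for the small and from 24.8 to 78.9 for the large subunit. Across the 12 oocyte libraries, 59 of 89 members correlated with the sum of the other members at a Spearman's rho above 0.7, with a median of 0.776. In the 9 granulosa cell libraries 71 of the 88 members listed above 0 did so, with a median of 0.917. The values of 1 library share its depth and scaling, and the part of these in the correlations was not tested. The members that did not move with the rest in oocytes, at a rho below 0.3, were Rpl3, Rpl21, Rpl26 and Rpl29, the paralogs Rpl3l, Rpl7l1 and Rpl10l and the pseudogene Rps3a3.

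The order of the genes was less fixed than their joint level. Over the 28 pairs of oocyte libraries with a sum above 3000, Spearman's rho across the members ran from 0.456 to 0.883, with a median of 0.653, and over the 6 pairs of the 4 low libraries from 0.175 to 0.434. The 10 highest genes held 29.1% to 67.4% of the members' sum in the 8 oocyte libraries above 3000, the highest share being in Young 2, where 21 members were listed at 0.

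**Figure D2:**
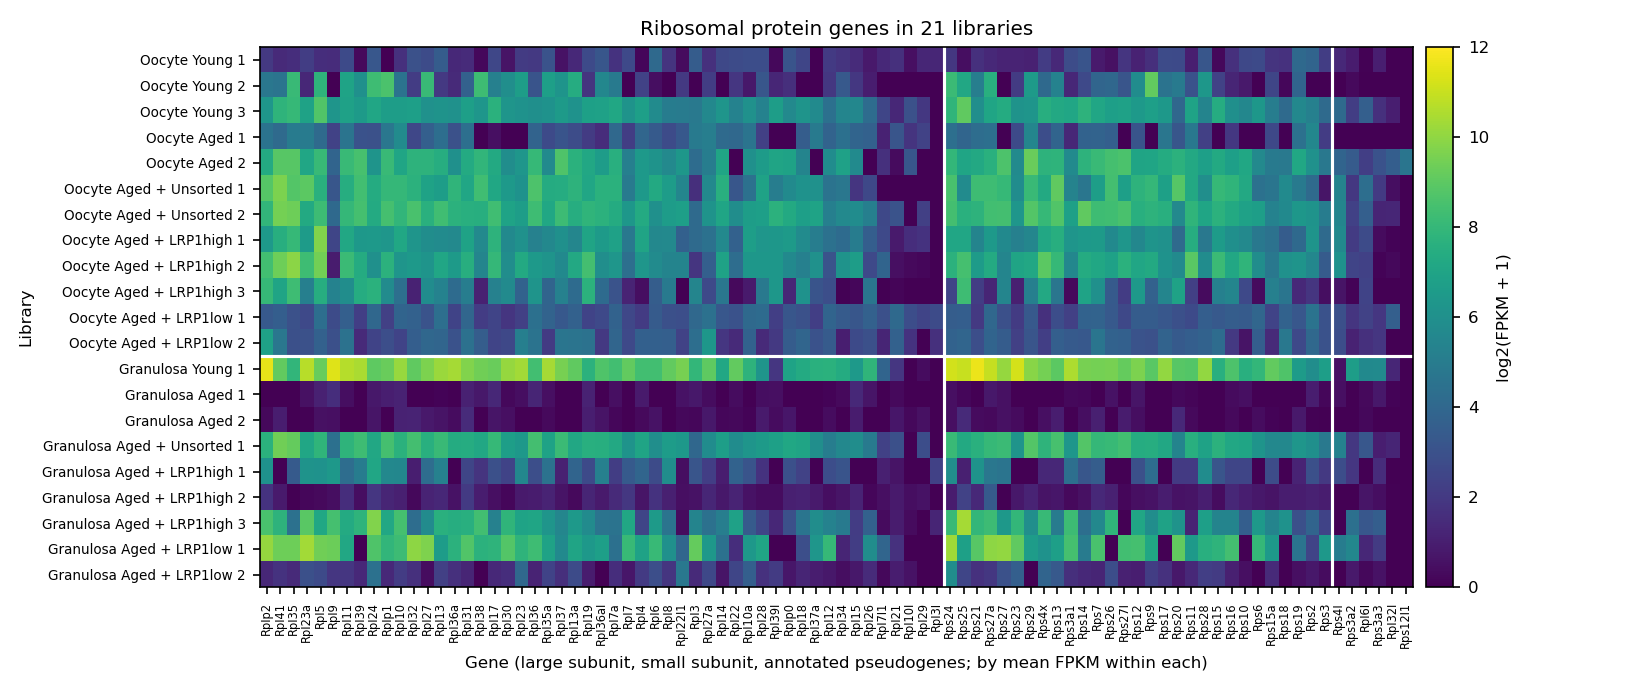
log2(FPKM + 1) of the ribosomal protein genes reported here (columns: large subunit, small subunit, then annotated pseudogenes, each by mean FPKM) in each of the 21 libraries (rows, oocytes above the horizontal white line); colour runs from 0 to 12. The libraries differ as whole rows, and Rpl10l, Rpl29 and Rpl3l at the right end of the large subunit stay dark in all of them, at or below 8.15.

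The most abundant members were ranked by mean FPKM in each cell type. The highest in oocytes were Rpl35 at 305, Rpl41, the smallest ribosomal protein, at 269, Rpl5 at 266, Rps25 at 158 and Rps13 at 156. In granulosa cells they were Rplp2 at 531, Rps24 at 470, Rps21 at 464, Rpl9 at 428 and Rps25 at 408. These means weigh most on the libraries with a high sum, above all the Young granulosa cell library, and the granulosa cell means include the library labelled Aged + Unsorted. Rps25 was in both lists, and its granulosa cell mean rested on 2045 in Young and 1350 in Aged + LRP1high 3. Rpl5, which carries the 5S ribosomal RNA together with Rpl11, was the highest member in LRP1high oocyte library 1. Its FPKM was 844, 701 and 176 in LRP1high, against 275 and 16.7 in Aged, 195 and 302 in Aged + Unsorted, 1.93, 225 and 423 in Young, and 18.9 and 12.2 in Aged + LRP1low. The LRP1high and Aged values overlapped. Its partner Rpl11 had 145, 291 and 58.3 in LRP1high and 23.9 and 282 in Aged oocytes, which overlapped too.

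Rpl9 of the large subunit was among the least even. It reached 2759 in the Young granulosa cell library, 356 in Aged + LRP1high 3 and 625 in Aged + LRP1low 1, and was between 0 and 75.5 in all 12 oocyte libraries, including 8.39 and 15.9 in Aged + Unsorted, where the median member stood at 108 and 155. At the low end, Rpl3l, Rpl29, Rps3a3, Rps12l1 and Rpl32l had the lowest means in oocytes, 0.772 to 2.13, and Rpl10l, Rpl32l, Rpl3l, Rpl29 and Rpl21 the lowest above 0 in granulosa cells, 0.149 to 1.74. Rps12l1 was listed at 0 in 20 of the 21 libraries and at 24.0 in Aged oocyte library 2.

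The stalk proteins and other well-studied members were uneven within a library. Rplp0, the base of the stalk, had 120 in Aged oocyte library 2 and was listed at 0 in Aged 1, and reached 125 in the Young granulosa cell library. Rplp1 was at 619 and Rplp2 at 3026 in that granulosa cell library, and at 353 and 239 in Aged + Unsorted oocyte library 2. Rps6, the substrate of S6 kinase, was at 248 in Young granulosa cells, 106 in Aged + Unsorted 2 and 0 in Young 2 and Aged 1 oocytes. Rps27a, which is made as a fusion with ubiquitin, reached 2001 in Young granulosa cells and 328 in Aged + Unsorted oocyte library 2. Rps2, Rps3, Rps19, Rpl4 and Rpl13a were between 31.7 and 179 in that oocyte library and between 57.8 and 536 in Young granulosa cells, and none of them exceeded 0.916 in an Aged granulosa cell library.

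Low values of some members stood beside high values of their copies. The mouse genome holds many processed pseudogenes of these genes, and 80 of the 83 protein-coding members shared at least 10% of the 50-base words of one or more of 619 annotated pseudogenes. Rpl21 had the most copies, 63, and Rpl29 had 39. In the Young granulosa cell library Rpl21 stood at an FPKM of 2.72 and its copies together at 723, and in oocyte library Aged + Unsorted 2 at 7.46 and 410. Rpl29 stood at 0.307 and 3.88 in these libraries and its copies at 69.0 and 180. How the reads were divided between gene and copy was not tested, so the levels of Rpl21 and Rpl29 are uncertain, as are those of other members. In the Young granulosa cell library 13 of the 83 stood below the sum of their copies, among them Rpl34 (168 against 1434), Rpl26 (233 against 1229), Rps19 (93.9 against 1110), Rps6 (248 against 504) and Rps2 (57.8 against 218). In oocyte library Aged + Unsorted 2 there were 12, among them Rpl34 (48.7 against 380), Rpl37 (300 against 593) and Rps19 (81.7 against 109).

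The level on copies was also read per library, relative to the members. Per 100 FPKM of members, the pseudogenes had 34.2 to 46.6 in the 8 oocyte libraries with a sum above 3000 and 40.6 to 45.6 in the 4 such granulosa cell libraries. In the low oocyte libraries they had 171 in Young 1, 222 in Aged 1, and 285 and 199 in Aged + LRP1low. In the low granulosa cell libraries they had 670 and 571 in Aged, 94.7 and 256 in Aged + LRP1high 1 and 2, and 84.4 in Aged + LRP1low 2. The members' sum is the divisor of this ratio, so the ratio and the sum are not independent. A low sum raises the ratio only where the copies fall less than the members. The copies summed to 528, 2276, 2258 and 2029 in Young 1, Aged 1 and Aged + LRP1low 1 and 2 oocytes. In the oocyte libraries above 3000 they summed to 1335 to 6043. The reason for the higher ratios was not tested.

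**Figure D3:**
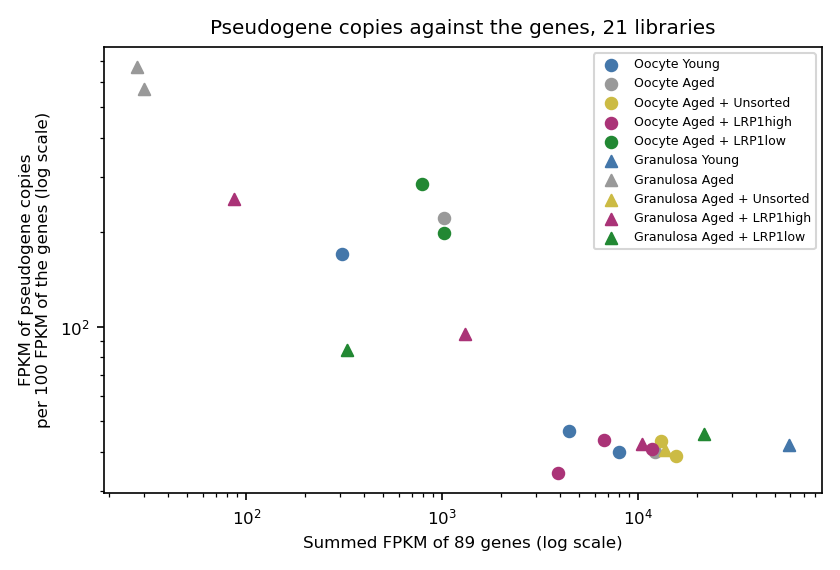
FPKM of annotated pseudogene copies per 100 FPKM of the 89 genes (y axis, log scale) against the summed FPKM of the genes (x axis, log scale); circles are oocyte and triangles granulosa cell libraries, coloured by group. The 12 libraries above 3000 lie between 34.2 and 46.6, and the other 9 between 84.4 and 670.

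Some ribosomal proteins are encoded by more than one gene. The 8 pairs examined include Rps4x with Rps4l, which is annotated as a pseudogene. Rpl39, an X-linked gene for a short basic protein at the exit tunnel of the large subunit, has an autosomal counterpart, Rpl39l, known for its use in male germ cells. Rpl39 (ENSMUSG00000079641.3) lies on the minus strand of chromosome X from 37082520 to 37085402, and Rpl39l (ENSMUSG00000039209.12) on the plus strand of chromosome 16 from 10170226 to 10174911, in GRCm38. Their coding sequences in the GENCODE annotation are both 156 bases long and differ at 23, which leaves them 85.3% identical. They are shown because reads can be assigned to one or the other only where they differ, and capitals mark the bases that differ.
Rpl39: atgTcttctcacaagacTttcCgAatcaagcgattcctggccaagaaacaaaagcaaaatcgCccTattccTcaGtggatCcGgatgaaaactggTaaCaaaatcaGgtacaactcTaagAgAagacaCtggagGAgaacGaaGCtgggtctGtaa
Rpl39l: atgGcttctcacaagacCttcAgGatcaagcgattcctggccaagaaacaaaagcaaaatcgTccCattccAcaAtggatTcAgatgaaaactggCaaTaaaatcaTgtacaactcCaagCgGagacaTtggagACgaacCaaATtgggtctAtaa
The longest stretch shared without a difference is 38 bases, and no 50-base word occurs in both transcript sets, so a read of that length on the coding sequence spans a difference.

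Rpl39l was higher in oocytes than in granulosa cells of Aged + LRP1high. Its FPKM in Aged + LRP1high oocytes was 80.5, 81.5 and 81.4, and in Aged + LRP1high granulosa cells it was 0, 0.332 and 1.55. Granulosa cell libraries 1 and 2 of this comparison had low sums, 1310 and 86.8, and granulosa marker medians of 1.26 and 0.326. The 2 cell types did not overlap, and the gene was called lower in granulosa cells (difference of mean log2(FPKM + 1) of -5.77, standard error 1.55, adjusted p = 0.037, limma with Benjamini-Hochberg adjustment over 21767 genes). Rpl39 itself was 83.7, 168 and 173 in these oocytes and 31.7, 0.382 and 226 in the granulosa cells, and did not pass the test (adjusted p = 0.492). Outside this comparison Rpl39l was at 103 in Young 3, 127 in Aged 2, and 32.8 and 207 in Aged + Unsorted oocytes, and at 1.42 in Young 2. The oocyte libraries with low oocyte markers were as low as granulosa cells, at 0.215 in Young 1, 0 in Aged 1 and 3.71 and 2.98 in Aged + LRP1low. It made up 52.8%, 25.8%, 9.16% and 37.3% of the pair in Young 3, Aged 2 and the Aged + Unsorted libraries, and 49.0%, 32.7% and 32.0% in Aged + LRP1high oocytes. In the Young granulosa cell library Rpl39l was at 2.70 beside 1425 for Rpl39, which is 0.189% of the pair, and it was at or below 3.22 in the Aged and Aged + LRP1low granulosa cell libraries. The library labelled Aged + Unsorted granulosa cells had 112 and 307. In 9 of 14 alternatives, each of the 6 single libraries left out among them, the call was lost at the same direction, with adjusted p from 0.000462 to 0.169.

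Rps4l differed in the same direction but did not pass the test. It is annotated as a transcribed processed pseudogene of Rps4x on chromosome 6 (148354656 to 148355598, plus strand) and shares no 50-base word with Rps4x, the X-linked gene of the small subunit. Its FPKM was 16.5 in Young 3, 13.6 in Aged 2, 40.8 and 43.7 in Aged + Unsorted, and 51.3, 69.4 and 0.538 in Aged + LRP1high oocytes. In the other oocyte libraries it was 1.57 and 0 in Young 1 and 2, 0 in Aged 1, and 6.72 and 6.03 in Aged + LRP1low. In granulosa cells it was 0.471 in Young and 6.07, 0 and 0 in Aged + LRP1high, so the 2 cell types of Aged + LRP1high overlapped. It was 31.5 in Aged + LRP1low 1 and 39.2 in the library labelled Aged + Unsorted. Against oocytes, the granulosa cell libraries of Aged + LRP1high differed by -3.21 (standard error 1.52, adjusted p = 0.311), which did not pass the test.

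**Figure D4:**
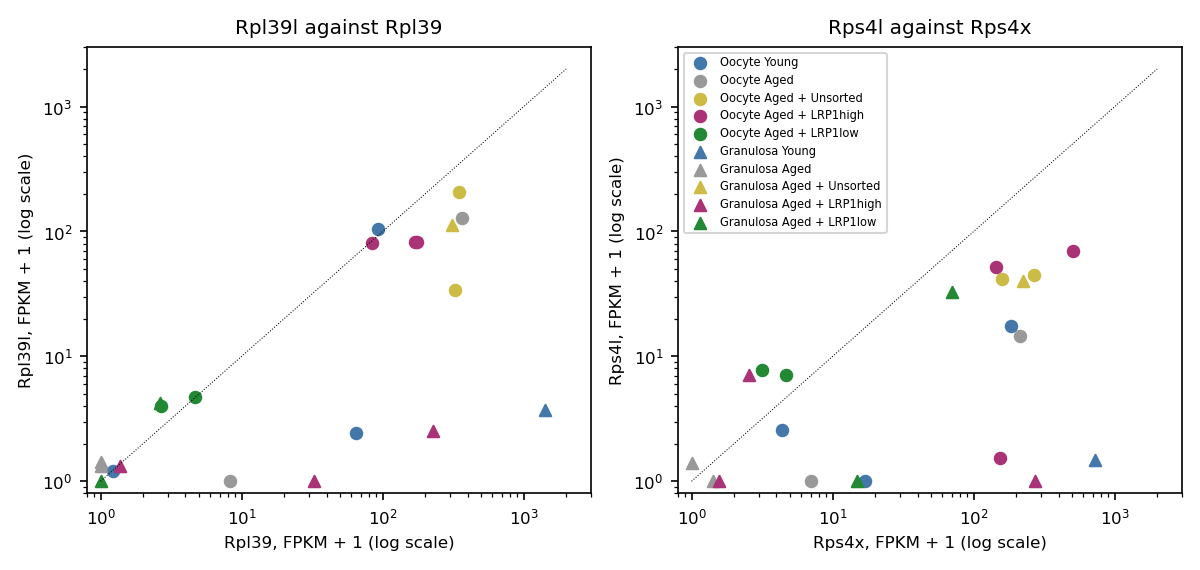
FPKM + 1 of Rpl39l against Rpl39 (left) and of Rps4l against Rps4x (right), both axes on a log scale; each point is 1 library, circles are oocytes and triangles granulosa cells, coloured by group, and the dotted line marks equal levels. The Young granulosa cell library lies at the lower right in both plots, with Rpl39l at 2.70 and Rps4l at 0.471.

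In the other 6 pairs the counterpart was not called between the cell types. Rps27l, a p53-regulated counterpart of Rps27, was at 117 in Young 3, 386 in Aged 2, and 108 and 369 in Aged + Unsorted oocytes, and at 573 in Young granulosa cells beside 1092 for Rps27. In Aged + LRP1high it was 77.1, 203 and 3.41 in oocytes and 0, 0.171 and 0 in granulosa cells (difference of -5.29, standard error 2.00, adjusted p = 0.167). Rpl22l1 exceeded Rpl22 in Aged + Unsorted oocytes, at 45.0 and 107 against 8.38 and 58.2, and in the Young granulosa cell library, at 751 against 553. Rpl36al and Rpl36a were nearly equal in Aged + Unsorted oocytes, at 203 and 209 against 231 and 207, and stood at 415 and 1338 in Young granulosa cells. Rpl7l1 reached 13.7 at most in oocytes and 14.1 in granulosa cells, where Rpl7 reached 80.3 and 561. Rpl3l, a gene of muscle, and Rpl10l, a gene of the testis, were at or below 8.15 in all libraries. The highest Rpl3l values were 5.67 and 2.18 in the 2 Aged + LRP1low oocyte libraries and 3.96 in Aged + LRP1high granulosa cell library 1, all of them low libraries.

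The 4 promoter windows show the pyrimidine runs of members named above. RefSeq promoters (GRCm38.p6) were given for 64 of the 89 members, and a C followed by 5 or more C or T, on the gene's strand only, occurred from 30 bases before to 20 after the annotated start in 43 of them (67.2%), against 39.3% of 27025 genes with a promoter and 52.2% of 69 genes of the mitochondrial ribosome. Capitals mark the run, and a match is only a description of the letters, since annotated starts can miss the true one.
Rps27, chr3:90213629-90213678, minus strand: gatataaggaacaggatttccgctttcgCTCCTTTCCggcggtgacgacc
Rpl35, chr2:39005112-39005161, minus strand: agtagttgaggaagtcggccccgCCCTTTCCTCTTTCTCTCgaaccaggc
Rpl39, chrX:37085203-37085252, minus strand: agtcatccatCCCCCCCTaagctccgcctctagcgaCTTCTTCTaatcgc
Rpl39l, chr16:10170198-10170247, plus strand: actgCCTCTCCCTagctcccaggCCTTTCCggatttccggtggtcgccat
These windows were chosen because they hold a run. Among members named here, the windows of Rps4x, Rpl41, Rpl10, Rpl22, Rpl36a, Rpl36al, Rpl10l, Rpl3l and Rpl7l1 held none.

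Aging was examined by comparing Aged with Young. Calls required an adjusted p under 0.05 together with a change of more than 1.5-fold in a limma fit of log2(FPKM + 1), and 88 of the 89 genes passed the filter on low values in oocytes and 84 in granulosa cells. In oocytes 0 members were called, against 0.0964% of all genes tested. At an unadjusted p under 0.05 only Rps12l1 passed (1 of 88, against 8.65% of all genes), and this pseudogene was above 0 in 1 library. The median difference of the 89 genes was 1.06 on the log2(FPKM + 1) scale and that of all genes tested was 0.94. The sign rested on Aged library 2, without which the median was -0.52, while without Young 1 and Aged 1 it was 1.99.

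In granulosa cells Young was 1 library, whose spread was assumed to be that of the other groups. The p-values of this fit rest on that assumption and not on a replicate of Young. Both Aged libraries showed almost no granulosa markers, with medians of 0 and 0.187. The members' medians in them, 0.133 and 0.21, lay below the 0.319 and 0.294 of the vomeronasal receptor genes. Age and the low level of cell RNA in the Aged libraries cannot be told apart here. By this fit 33 members were lower in Aged than in Young and 0 higher, which is 33 of 84 tested against 31.8% of all genes. At an unadjusted p 71 were lower and 0 higher, against 48.7% of all genes in either direction. The median difference of the members was -8.45 and that of all genes tested was -2.25. The largest called differences were in Rps24, Rpl39, Rpl11, Rpl23 and Rps28. Rps24, which is mutated in Diamond-Blackfan anemia, was at 2291 in Young and at 0.419 and 0.410 in Aged (-10.66, standard error 3.11, adjusted p = 0.0473). Rpl11 was at 1640 in Young and at 0.362 and 0 in Aged (-10.46, standard error 2.85, adjusted p = 0.0398), and Rpl23 at 1271 and at 0.381 and 0 (-10.08, standard error 2.70, adjusted p = 0.0381). Rpl39 and Rps28 were at 1425 and 1071 in Young and listed at 0 in both Aged libraries. When either Aged library was left out, 0 members were called, and with the values rescaled without Gm10800, a setting chosen after seeing the data, 0 were called as well. The size of the difference stayed in that setting, with a median of -8.47 for the members and 0.00 for all genes, and with -10.38 for Rps24, -10.81 for Rpl11 and -11.34 for Rpl39.

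The next question was whether transplanted cells shifted the genes from the Aged level. In Aged + LRP1high oocytes 0 members were called against Aged (0.771% of all genes), and at an unadjusted p 1 member passed, again Rps12l1, against 10.9% of all genes. The median difference was 0.50, with -1.05 for all genes. It became -1.19 without Aged library 1 and 2.15 without Aged 2, which each left 1 Aged library. In Aged + Unsorted oocytes 0 members were called (0% of all genes), and 3 were higher and 1 lower at an unadjusted p, against 8.74%. The 3 were Rpl35a, Rpl36al and the pseudogene Rpl6l, and the 1 was Rpl10l. The median of 1.97, with -0.86 for all genes, fell to 0.09 without Aged 1 and was 3.65 without Aged 2.

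In Aged + LRP1low oocytes 0 members were called against Aged (3.17% of all genes), and 2 were lower at an unadjusted p, Rpl10 and Rps29, against 14.1%. The median difference of the 89 genes was -1.50 while all genes tested had 0.68. Rps29, of the small subunit, was at 9.15 and 7.84 in Aged + LRP1low and at 44.1 and 618 in Aged oocytes (-4.14, standard error 1.71, adjusted p = 0.288). Without Young 1 and Aged 1, a setting chosen after seeing the data, 21 members were called lower and the median was -3.64. Aged was then 1 library. Without Aged 1 alone the median was the same and 1 member was called, and without Aged 2 the median was 0.00 and 0 were called.

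Aged + LRP1high and Aged + LRP1low oocytes were the pair of oocyte groups with called members. In LRP1high 3 members were higher, Rpl35 and Rps4x among them, and Rpl21 was lower, 4 of 88 against 26% of all genes tested. By direction, 1.21% of all genes were called higher and 24.8% lower. At an unadjusted p 16 members were higher and 1 lower, against 49.1% of all genes, of which 3.17% were higher and 45.9% lower. The median difference was 2.15 over the 89 genes and -1.89 over all genes tested, and 76 members had a positive difference. With Gm10800 left out of the scaling, all genes had -3.08 and the members 1.83.

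Rpl35, which sits by the exit tunnel of the large subunit, had an FPKM of 260, 951 and 306 in LRP1high and 6.76 and 6.60 in LRP1low oocytes, and the groups did not overlap (5.79, standard error 1.79, adjusted p = 0.0415). Rps4x of the small subunit had 144, 507 and 152 against 2.16 and 3.64 (5.87, standard error 1.59, adjusted p = 0.0318). Rpl21 had 0.849, 0.385 and 0.111 in LRP1high and 16.0 and 12.2 in LRP1low (-3.41, standard error 1.04, adjusted p = 0.0405), in the setting of the copies described above. Each of the 4 calls was lost when any 1 of the 5 libraries was left out and under the block, at the same direction, with adjusted p of up to 0.251. With only the 2 groups in the fit 33 members were higher and 3 lower, and without Young 1 and Aged 1 22 were higher and 2 lower. The shares of all genes called in these fits are not given here, and the main fit called 26% of all genes. These counts therefore cannot set the members apart from other genes. Both LRP1low libraries had low oocyte markers, and the markers of other cells were higher than in LRP1high. The medians in LRP1low were 4.61 and 3.49 for granulosa, 5.11 and 4.19 for luteal and thecal, and 6.04 and 4.30 for stromal markers. They were 4.12 and 2.86 for immune and 6.54 and 5.92 for endothelial markers. In the same order the medians were at most 0.154, 0.713, 0.136, 0.121 and 1.91 in LRP1high. The vomeronasal receptor genes also had medians of 2.73 and 2.48 in LRP1low, against at most 0.0763 in LRP1high. The medians over protein-coding genes were 5.21 and 3.81 in LRP1low, against at most 0.252 in LRP1high. Marker medians at such levels do not by themselves show RNA of those cells. Depth, rebuilt from the deposited coverage, was 0.515 and 0.278 aligned gigabases in LRP1low and 3.15, 2.29 and 2.72 in LRP1high. Thus the labelled treatment, the depth and the RNA of these libraries cannot be told apart.

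Aged + LRP1high oocytes did not differ detectably from the other 2 groups. Against Aged + Unsorted 0 members were called (0% of all genes), 0 passed at an unadjusted p (2.79%), and the median difference was -1.34 with 0.00 for all genes. Against Young 0 were called (0%), 7 were higher and 0 lower at an unadjusted p (3.17%), and the median was 1.47 with -0.14 for all genes. The 7 included Rplp2 and Rps4x. Rplp2 was at 86.3, 332 and 263 in LRP1high and at 2.99, 25.7 and 76.8 in Young, without overlap (3.29, standard error 1.25, adjusted p = 1.00).

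**Figure D5:**
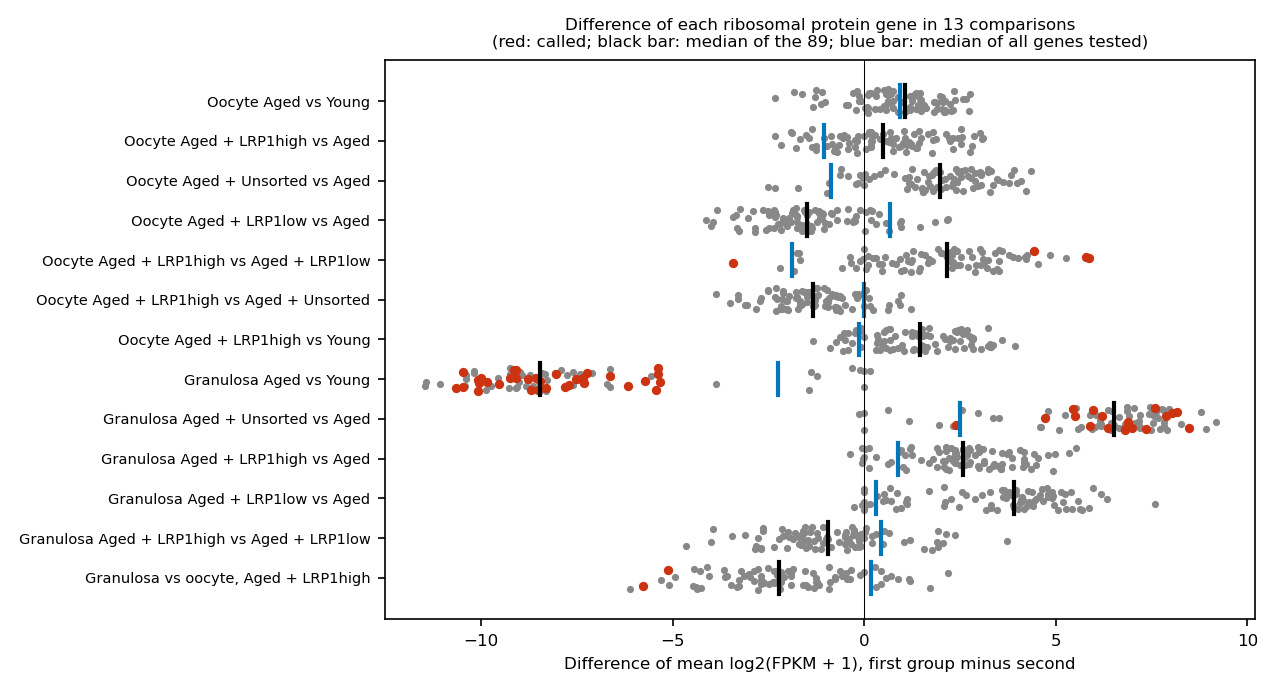
Difference of mean log2(FPKM + 1) (x axis) of each of the 89 genes in the 13 comparisons (rows); grey points are genes that were not called, red points called genes, black bars the median of the 89 and blue bars the median of all genes tested. In Aged + LRP1high against Aged + LRP1low oocytes the members' median is 2.15 where that of all genes is -1.89.

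The granulosa cell library labelled Aged + Unsorted held RNA with oocyte markers and was 1 library, assumed to vary like the other groups, so its comparison with Aged does not describe granulosa cells after transplantation. It gave 18 members called higher than Aged and 0 lower, against 42.4% of all genes, and 36 higher and 0 lower at an unadjusted p, against 50.8%. The median difference was 6.51 with 2.51 for all genes. Among the leading genes were Rps14, at 438 against 0.140 and 0.345 in Aged, Rpl37 at 285 and listed at 0 in Aged, and Rps13 at 364 against 0 and 0.919.

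Neither LRP1 group differed from Aged by the test in granulosa cells. For Aged + LRP1high 0 members were called (0% of all genes) and 4 were higher at an unadjusted p (among them Rpl18, Rplp0 and Rps10), against 8.51% of all genes, with a median of 2.58, and 0.89 for all genes. For Aged + LRP1low 0 were called (0%), and 6 were higher at an unadjusted p (Rpl10a, Rpl22l1, Rpl23, Rpl27a, Rps13 and Rps24, against 3.79%). The median was 3.91, with 0.31 for all genes, and fell to 1.08 without library 1. Library 1 had the luteal and thecal marker median of 519, and the Aged libraries had granulosa marker medians of 0 and 0.187. Among the 6, Rpl22l1 was at 14.5 and 26.9 against 0.489 and 0.190 in Aged (3.96, standard error 0.44, adjusted p = 0.368). Between Aged + LRP1high and Aged + LRP1low 0 were called (0%), and 2 were higher (Rplp0 and Rps10) and 1 lower (Rpl22l1) at an unadjusted p (5.15%). The median of -0.94, with 0.45 for all genes, became 1.42 without LRP1low library 1. Without LRP1low library 2, that group held 1 library and had no spread of its own.

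Between the cell types of Aged + LRP1high, 2 members were called lower in granulosa cells, Rpl39l being 1 of them, and 0 higher, against 5.24% of all genes tested. At an unadjusted p 19 were lower and 0 higher, against 16.1%. The median difference was -2.22 with 0.18 for all genes. The largest negative difference was that of Rpl35, at 9.6, 0 and 21 against 260, 951 and 306 (-6.11, standard error 1.84, adjusted p = 0.0669), which did not pass. The largest positive ones were those of Rpl9 (2.19, standard error 1.99, adjusted p = 0.633), Rps3a3 (1.71, standard error 0.86, adjusted p = 0.347) and Rpl3l, which was listed at 0 in these oocytes and was not tested. Of the 3 granulosa cell libraries only library 3 showed granulosa markers. The difference between the cell types in the change from Aged was tested as an interaction with all 21 libraries. It called 0 members for LRP1high and 0 for LRP1low, and also 0 of all 21767 genes in each. At an unadjusted p 2 and 28 members were higher, against 15.8% and 2.47% of all genes. The smallest adjusted p of the members were 0.303 and 0.491. The Aged granulosa cell libraries in both contrasts had member sums of only 27.5 and 29.9.

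Ribosomal genes outside the symbol rule were read beside the members. Fau, which encodes a ubiquitin-like fusion with eS30, was at 177, 582 and 314 in LRP1high and 12.4 and 18.5 in LRP1low oocytes. Rpsa, also known as the laminin receptor, was at 181 in Young granulosa cells and 0.608 and 0.207 in Aged, and was the only gene of this list that was called in any of the 13 comparisons. Rack1, a scaffold on the small subunit, was at 474 there and 0.101 and 0.487 in Aged.

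Genes around the ribosome were read from lists, beside the shares of all genes called in the same direction. These were 1.21% higher and 24.8% lower in LRP1high against LRP1low oocytes, 31.4% lower in Aged against Young granulosa cells, 42% higher in the library labelled Aged + Unsorted and 5.07% lower between the cell types. In LRP1high against LRP1low oocytes, 4 of 15 other TOP mRNAs were higher and 0 lower, namely Eif3e, Npm1, Eif4b and Nap1l1, with a median of 2.17. Of 30 ribosome biogenesis genes 3 were higher and 1 lower, and the 4 were Nolc1, Rrn3, Dkc1 and Nop2. Of 11 tested regulators of TOP mRNAs 1 was higher and 5 were lower, the higher one being the cap-binding factor Eif4e and the lower ones Tsc2, Eif4ebp1, Eif4ebp2, Myc and Rptor. Of 77 tested genes of the mitochondrial ribosome 2 were higher and 0 lower, with a median of 0.24. In Aged against Young granulosa cells, 7 TOP mRNAs, 19 biogenesis genes, 2 regulators and 48 of 76 tested mitochondrial ribosome genes were lower. The medians were -7.07, -3.18, -3.04 and -3.88, with -8.45 for the ribosomal protein genes, and 0 genes of these lists were higher. In the 2 Aged libraries the ribosomal protein genes had median FPKM of 0.133 and 0.21, and the mitochondrial ribosome genes 0.0654 and 0.128. With levels this near 0, the size of each difference largely follows the level in the single Young library. The order of these medians therefore does not rank the lists by a change with age. In the granulosa cell library labelled Aged + Unsorted against Aged, 4 TOP mRNAs, 19 biogenesis genes, 1 regulator and 58 mitochondrial ribosome genes were higher. Between cell types in Aged + LRP1high, 3 TOP mRNAs, 7 biogenesis genes and 7 mitochondrial ribosome genes were lower in granulosa cells. In the other 9 comparisons the only called gene of these lists was Nop2, a biogenesis gene, higher in Aged + LRP1low than in Aged oocytes.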

How the data were processed

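Oocytes and granulosa cells of ICR mice were sequenced as polyadenylated RNA. The labels name a KAPA stranded kit and the study's methods Smart-seq2. The authors aligned reads with HISAT2 2.2.1 and estimated levels with StringTie 1.3.3b, per the labels and methods, and deposited FPKM, TPM and coverage per gene for each library. The labels name mm9, but the coordinates of all 89 genes match GRCm38. Depth, rebuilt from the deposited coverage, was 0.278 to 3.40 aligned gigabases; no read counts were used.

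FPKM was summed over repeated gene identifiers. Genes whose FPKM averaged 1 or more across a fit's libraries were tested on log2(FPKM + 1), a scale that understates changes of low genes, with limma 3.58.1 in R 4.3.3, with no covariate, and called at a fold change over 1.5 and a Benjamini-Hochberg adjusted p under 0.05. One fit held all 12 oocyte libraries (28004 genes), one the 9 granulosa cell libraries (13002 genes) and one all 21 (21767 genes). The test was run on simulated data in which genes varied independently and no library was shifted as a whole. That run does not cover differences between whole libraries such as those described here. The labels do not name animals, so p-values measure the spread between libraries, which may be technical. Alternatives were a pseudocount of 0.1, no filter, TPM, quantile normalization, a trended robust fit, a replicate block, fits of the 2 groups alone and leaving out each library.

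Members and lists were chosen with earlier results of these data known. Genes were named as the 5 called members of largest change in each direction, the 5 highest and 5 lowest of a cell type, paralog pairs, well-studied members, the 4 ribosomal genes outside the symbol rule, and the 3 largest and smallest differences between cell types. A few genes that this rule names are not reported here, though they enter all counts, sums and medians. Members named at an unadjusted p or for their correlation or copies, Rpl9 in the levels, and the list genes were chosen after their values were seen.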

Additional observations from a re-analysis of the deposited data

How the results depend on the processing

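Of 173 recomputed counts of called members 120 stayed within 1.5 times the value given, and no named call reversed; the causes of the moves were not tested. For LRP1high against LRP1low oocytes (4 called) the count was 0 with a pseudocount of 0.1, 1 with quantile normalization, 0 with the replicate block, 36 with 2 groups only, 7 with FPKM rescaled without Gm10800 and 24 without Young 1 and Aged 1. For Aged against Young granulosa cells (33 called) these were 0 with a pseudocount of 0.1, 6 without a filter, 0 with quantile normalization, 0 with the replicate block, 82 with 2 groups only and 0 rescaled. For the granulosa cell library labelled Aged + Unsorted against Aged (18 called) they were 11 without a filter, 0 with quantile normalization, 79 with 2 groups only and 8 rescaled. Between cell types (2 called) they were 4 with a pseudocount of 0.1, 0 without a filter, 4 with TPM, 0 with quantile normalization, 13 with 2 groups only and 0 rescaled. For LRP1low against Aged oocytes (0 called) the count was 1 without a filter, with TPM, with quantile normalization and rescaled, and 21 without Young 1 and Aged 1, a setting that gave 1 for Aged against Young, 3 for LRP1high against Aged and 1 for Unsorted against Aged. The rescaled and the reduced sets were chosen after seeing the data. The shares of all genes called in these alternatives are not given here. These counts therefore cannot set the members apart from other genes.

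Leaving out single libraries gave 0 to 1 called for Aged against Young oocytes, 0 to 6 for LRP1high against Aged (6 without Aged 2), 0 to 11 for Unsorted against Aged (11 without Aged 2), 0 to 1 for LRP1low against Aged, and 0 to 0 for LRP1high against LRP1low. In granulosa cells it gave 0 to 0 for Aged against Young, 5 to 5 for the library labelled Aged + Unsorted against Aged, 0 to 6 for LRP1low against Aged and 0 to 5 for LRP1high against LRP1low (6 and 5 without LRP1low 2), and between cell types 0 to 7 (7 without oocyte LRP1high 3). For these fits too the shares of all genes called are not given. Where 1 library was left in a group, its spread was assumed to be that of the other groups. Pairing by replicate number was examined only within a cell type. Deviations of same-numbered oocyte libraries correlated at -0.436 to 0.441 over 21 pairs, and those of differently numbered ones at -0.52 to 0.52 over 36. In groups of 2 libraries the deviations mirror each other, so these ranges cannot decide whether the numbers pair the samples. Oocyte and granulosa cell libraries of the same number were not compared, and the fit of both cell types treats them as independent. Quantile normalization brought the members' median to -4.29 in Aged against Young granulosa cells and to 2.78 for the library labelled Aged + Unsorted. The median of LRP1high against LRP1low granulosa cells was 0.04 without LRP1high 2 and -3.53 without LRP1low 2. With 1 to 3 libraries a group and 0.278 to 3.40 gigabases, the absence of a call does not show that a gene was unchanged. The size of change that could be detected is not given here.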
